A study of Mus musculus with 52 samples.

Results

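The samples are CD8+ T cells that had been activated with beads and grown on a coated surface, compared between day 7 (4 libraries, M1, M2, M3 and M5) and day 3 (5 libraries, M1 to M5). They were picked by their titles and labels and make up 9 of the 52 libraries of the series. Spleens of OT-I mice were the source of the cells. Their transgenic T cell receptor recognises an ovalbumin peptide, and naive CD8+ cells were purified magnetically. They were activated with microbeads that carry antibodies against CD3 and CD28, at 1 bead per cell, with 100 U/ml of interleukin 2, in plates whose wells had been coated beforehand with the chemokine CCL21 and the adhesion molecule ICAM1. All 9 libraries share the OT-I receptor, the beads, interleukin 2 and the coating, and only the day differs. For comparison, 8 libraries of the same bead activation without the coating (5 of day 7, 3 of day 3) and 9 libraries of day 0 cells were used. No label says what an M number is or that M numbers are separate mice. So a p-value here weighs a change only against the variation among these libraries, and that variation may be technical. The study set out to find how the coating acts on killing and growth of such cells, and the comparison described here asks how cells on the coating change over time.

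Naive CD8+ T cells that meet an antigen signal and costimulation enlarge, switch to glycolysis and divide. The receptor signal induces transcription factors such as IRF4 and checkpoint receptors such as CTLA-4 and LAG-3, which limit further activation, while interleukin 2 sustains growth and the build-up of cytotoxic granules. ICAM1 is the ligand of the integrin LFA-1 (Itgal with Itgb2) and CCL21 is a ligand of CCR7, so the coating addresses receptors that T cells carry.

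The assay was bulk MARS-seq, in which reads come from the 3′ ends of transcripts. Totals ran from 1374720 to 1693377 counts in day 7 libraries and from 1245996 to 2365135 counts in day 3 libraries. Values below are CPM (counts scaled to library size) after TMM scaling over these 9 libraries, and a called gene has an adjusted p under 0.05 in edgeR's quasi-likelihood test (Benjamini-Hochberg over all genes tested). Log2 fold changes are day 7 over day 3, with their standard error (SE). In bulk RNA, fewer cells of a type and less RNA per cell cannot be told apart.

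The libraries carried the labelled cell type. The 13 CD8 T cell markers (Cd8a, Cd8b1, the CD3 chains and others) summed to 10665 to 12148 CPM at day 7 and 9930 to 12593 CPM at day 3. Of these markers Cd8a was called, lower at day 7, a call that was lost without day 7 M1 or M2. Cd4 had no count in the day 7 libraries and at most 3 counts in a day 3 library. The myeloid markers Lyz1, Cd14, Mpeg1, Clec9a, Siglech and S100a9 were at 0 counts in all 9 libraries, and Cst3, which many cell types express, was the only member of the 21 myeloid and dendritic markers with enough counts to be tested (172 ± 13.5 CPM at day 7, n = 4, and 123 ± 24.7 CPM at day 3, n = 5; adjusted p = 0.0491). That call was lost with log2 Rpl5 in the fit, without both M3 libraries and without any single library other than day 3 M5. B cell markers summed to 494 to 598 CPM at day 7 and 674 to 1237 CPM at day 3, nearly all of it Ighm, while Cd79a and Ms4a1 were at 0 in 8 of the 9 libraries. MHC class II genes summed to 76.3 to 116 CPM at day 7 and 116 to 151 CPM at day 3, and Cd74 and H2-Ab1, the invariant chain and a class II beta chain, were called lower at day 7. The part of other cells in the results below was not tested.

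Some libraries stood apart within their own day. On the 1000 most variable genes the first principal component took 53.7% of the variance and did not order the libraries by day: day 7 M3 lay among day 3 libraries and day 3 M3 lay on the side of day 7. The second component (17.2%) had lower scores in all 4 day 7 libraries than in all 5 day 3 libraries. A set of genes, chosen after the values were seen, moved with the first component. Rpl5, a protein of the large ribosomal subunit, had 17.2, 33.2, 1019 and 199 CPM in day 7 M1, M2, M3 and M5, against 985, 671, 46.7, 1068 and 1225 CPM in day 3 M1 to M5. Rplp0, another protein of the same subunit, had 5823 ± 110 CPM at day 7 (n = 4) and 5570 ± 318 CPM at day 3 (n = 5). Of the 8793 genes tested, 95 were at least 3-fold lower in day 7 M1, day 7 M2 and day 3 M3 than in day 7 M3 and each other day 3 library, among them 4 of the 76 cytosolic ribosomal protein genes, and no gene was 3-fold higher there. None of the 95 was called in the comparison of the days. Their definition puts low and high libraries within both days, so calls could hardly arise. In the rest of the series, Rpl5 reached 20.5 CPM in 1 library and 2284 CPM in another before TMM scaling, so the spread is not limited to coated cells. What sets this pattern was not tested. The count of all called genes and many list counts below are given also with log2 Rpl5 in the fit and without both M3 libraries, alternatives that were added after seeing the data. Without both M3 libraries, Rpl5 had 17.2 to 199 CPM at day 7 and 671 to 1225 CPM at day 3. In that alternative the day and the Rpl5 pattern cannot be told apart.

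**Figure D1:**
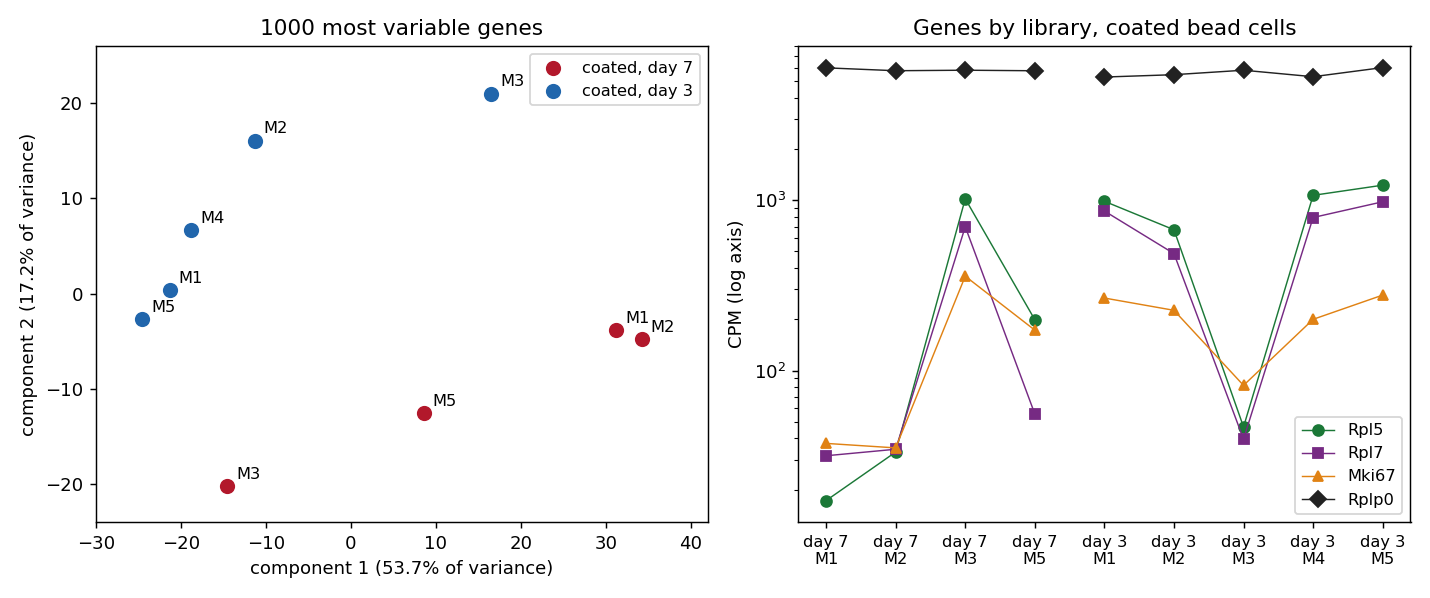
Left, scores of the 9 coated bead libraries on the first and second principal components of log2 CPM over the 1000 most variable genes, day 7 in red and day 3 in blue. Right, CPM (log axis) of Rpl5, Rpl7, Mki67 and Rplp0 in each library: the first 3 genes are low in day 7 M1 and M2 and in day 3 M3, and Rplp0 is level.

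Between the days, 561 of the 8793 genes tested were called (6.38%), 321 higher (3.65%) and 240 lower (2.73%) at day 7. A change of 2-fold or more was seen for 87 of the called higher and 89 of the called lower genes. CPM of the groups did not overlap for 520 of the 561 called genes, and for 958 genes (10.9%) of all those tested. Genes named for the largest changes had to lack overlap, so its absence adds no support for them. With log2 Rpl5 in the fit 501 genes were called, 384 of them among the 561, and without both M3 libraries 932 were called, 424 higher and 508 lower. Leaving out a single library gave 290 (without day 7 M2) to 584 calls, and the count was also over 1.5 times smaller without day 7 M1 (349), day 7 M5 (302) or day 3 M4 (359). The median log2 fold change of all genes was -0.03. In the authors' deposited table, which gives day 3 over day 7, 513 genes had an adjusted p under 0.05, and 386 of them (75.2%) were called here in the same direction, which is 68.8% of the calls here.

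Inhibitors of the cell cycle were among the genes that rose most. Cdkn2a, whose locus encodes an inhibitor of the CDK4 and CDK6 kinases and a stabiliser of p53 (3′ counts cannot tell these transcripts apart), had 35.2, 39.0, 64.2 and 53.6 CPM in day 7 M1, M2, M3 and M5 and 5.57, 4.82, 4.94, 6.93 and 6.76 CPM in day 3 M1 to M5. Every day 7 library was above every day 3 library, by a log2 fold change of 3.01 ± 0.23 (SE; adjusted p = 5.93e-06). Cdkn2b, its neighbour on chromosome 4 and also a CDK4 and CDK6 inhibitor, had 22.3, 39.0, 43.6 and 45.8 CPM at day 7 and 3.90, 7.23, 4.39, 7.80 and 3.86 CPM at day 3 (log2 2.79 ± 0.28, adjusted p = 4.64e-05). Cdkn1a, the inhibitor p21 that p53 induces, had 305, 447, 333 and 300 CPM at day 7 and 69.1, 133, 86.8, 69.3 and 74.4 CPM at day 3. Its groups did not overlap, day 3 M2 was the highest of its day, and the log2 fold change was 2.01 ± 0.20 (adjusted p = 0.000217). Cdkn2c, a further inhibitor of CDK4 and CDK6, and Ccng1, a cyclin that p53 induces, were called higher too. Of the 21 tested G1 cyclins, kinases and inhibitors these 5 were higher, and Ccne1, the cyclin of entry into S phase, was lower, with 141, 139, 124 and 117 CPM at day 7 against 190, 203, 230, 209 and 172 CPM at day 3 (log2 -0.62 ± 0.11, adjusted p = 0.00415). The list's median was 0.10, against -0.03 for all genes. With log2 Rpl5 in the fit 5 were higher and 1 lower, and without both M3 libraries 6 were higher and 2 lower. The lower count was also 2 without day 7 M3.

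Genes of replication and mitosis did not follow. None of 43 S phase genes and none of 50 G2 and mitosis genes was called by edgeR, and their medians were -0.11 and -0.01; without both M3 libraries 5 S phase genes were lower, and 2 G2 and mitosis genes were higher and 2 lower. DESeq2 called 1 gene of each list, and 1 S phase gene was lower with log2 Rpl5 in the fit or without day 3 M3, where 1 G2 and mitosis gene was higher. S phase genes summed to 8532 to 9125 CPM at day 7 and 9090 to 9690 CPM at day 3. G2 and mitosis genes summed to 10504 to 11019 CPM at day 7 and 9739 to 10860 CPM at day 3, so the groups overlapped for both lists. Mki67, a nuclear protein of dividing cells, had 37.3, 35.1, 358 and 173 CPM in day 7 M1, M2, M3 and M5 and 266, 226, 81.8, 200 and 277 CPM in day 3 M1 to M5. It was low in the libraries where Rpl5 was low, and it was not called (log2 -0.47 ± 0.74, adjusted p = 0.769); its log2 fold change was 0.23 with log2 Rpl5 in the fit.

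Of 22 tested p53 targets and apoptosis genes 7 were called higher (Bax, Casp8, Ccng1, Cdkn1a, Ei24, Phlda3 and Zmat3), against 3.65% of all genes. None was called lower, 6 had a negative log2 fold change, and the list's median was 0.33. Phlda3, a p53 target that restrains AKT, had 53.9, 74.1, 66.6 and 69.3 CPM at day 7 and 12.3, 16.9, 9.33, 8.67 and 11.6 CPM at day 3 (log2 2.52 ± 0.19, adjusted p = 5.93e-06). Bax, which permeabilises mitochondria in apoptosis, had 421, 481, 526 and 532 CPM at day 7 and 240, 224, 290, 266 and 205 CPM at day 3 (log2 1.00 ± 0.12, adjusted p = 0.000209). Neither gene's groups overlapped. With log2 Rpl5 in the fit 6 members were called higher, and without both M3 libraries 8 were higher and 1 lower. The M number as a replicate block left 5 higher. The summed CPM of the list was 2504 to 2869 at day 7 and 1685 to 2074 at day 3, with day 7 M1 the lowest of its day.

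The promoters of called p53 targets are shown because these genes moved together. RefSeq windows of 300 bases (250 before to 50 after the start, build GRCm38.p6) were found for 34 of 35 called members of the p53, glycolysis, hypoxia and amino acid lists, and Zmat3 had none. The p53 half-site, searched on both strands, stood in 4 of the 6 windows of called p53 list members and in 8.37% of 27025 promoters. The list was assembled from known p53 targets, and a match is no proof of binding. The Cdkn1a window (chr17:29090729-29091028, plus strand) and the Ccng1 window (chr11:40755237-40755536, minus strand) are given 5′ to 3′ on the gene's strand, with half-sites in capitals.
Cdkn1a: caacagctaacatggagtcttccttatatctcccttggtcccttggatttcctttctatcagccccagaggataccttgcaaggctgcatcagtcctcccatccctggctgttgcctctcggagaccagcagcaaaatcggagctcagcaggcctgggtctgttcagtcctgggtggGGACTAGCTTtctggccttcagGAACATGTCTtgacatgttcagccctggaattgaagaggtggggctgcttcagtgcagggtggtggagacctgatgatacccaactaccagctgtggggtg
Ccng1: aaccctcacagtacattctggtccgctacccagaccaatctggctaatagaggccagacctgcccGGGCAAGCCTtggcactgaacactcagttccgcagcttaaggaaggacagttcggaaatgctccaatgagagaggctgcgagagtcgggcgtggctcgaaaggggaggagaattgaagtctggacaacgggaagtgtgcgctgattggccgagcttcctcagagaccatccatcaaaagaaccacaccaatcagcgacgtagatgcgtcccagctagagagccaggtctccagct

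Genes of effector T cells rose in part. Of 15 tested genes of cytotoxic granules and death ligands 5 were called higher, against 3.65% of all genes, and none lower (median 0.22). The counts were the same with log2 Rpl5 in the fit and without both M3 libraries. The M number as a replicate block left 4 higher. With DESeq2 or without day 3 M1, 1 member was called lower. The summed CPM of the list had a lower mean at day 7 (5324 ± 994, n = 4) than at day 3 (6400 ± 870, n = 5), and the groups overlapped. Gzmm, a granule protease, had 51.7, 37.1, 36.3 and 30.1 CPM at day 7 and 6.69, 4.02, 4.39, 7.37 and 4.83 CPM at day 3 (log2 2.78 ± 0.24, adjusted p = 1.37e-05). Prf1, the pore-forming perforin, had 68.2, 63.9, 52.1 and 70.0 CPM at day 7 and 19.0, 15.3, 40.1, 26.003 and 19.8 CPM at day 3 (log2 1.39 ± 0.23, adjusted p = 0.00275), with day 3 M3 the highest of its day and still under all day 7 libraries. Fasl, the ligand of the death receptor FAS, Ctsw, a granule cathepsin, and Lamp1, a granule and lysosome membrane protein, were the other 3.

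Gzmb and Gzma, the granzymes B and A, were not called, though Gzmb was called lower in 2 of 16 alternatives. Gzmb had 2194, 2806, 3137 and 3103 CPM at day 7 and 2961, 5305, 4795, 4516 and 3306 CPM at day 3 (log2 -0.57 ± 0.18, adjusted p = 0.0888). Gzma had 43.8, 65.2, 134 and 40.5 CPM at day 7 and 24.0, 6.42, 12.6, 28.6 and 57.0 CPM at day 3 (log2 1.42 ± 0.61, adjusted p = 0.239), and its groups overlapped. Ifng, the gene of interferon gamma, stayed near 10 CPM in most libraries and Ccl5, a chemokine of effector cells, had 32.3 to 56.3 CPM at day 7 and 14.5 to 106 CPM at day 3; neither was called (adjusted p = 0.388 and 0.96). Among 13 cytokine and chemokine genes Ltb and Tnfsf14, both ligands of the TNF family, were called higher, with log2 fold changes of 0.43 ± 0.09 and 1.07 ± 0.26. The Tnfsf14 call was lost without day 7 M2, M3 or M5, day 3 M2 or both M3 libraries.

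**Figure D2:**
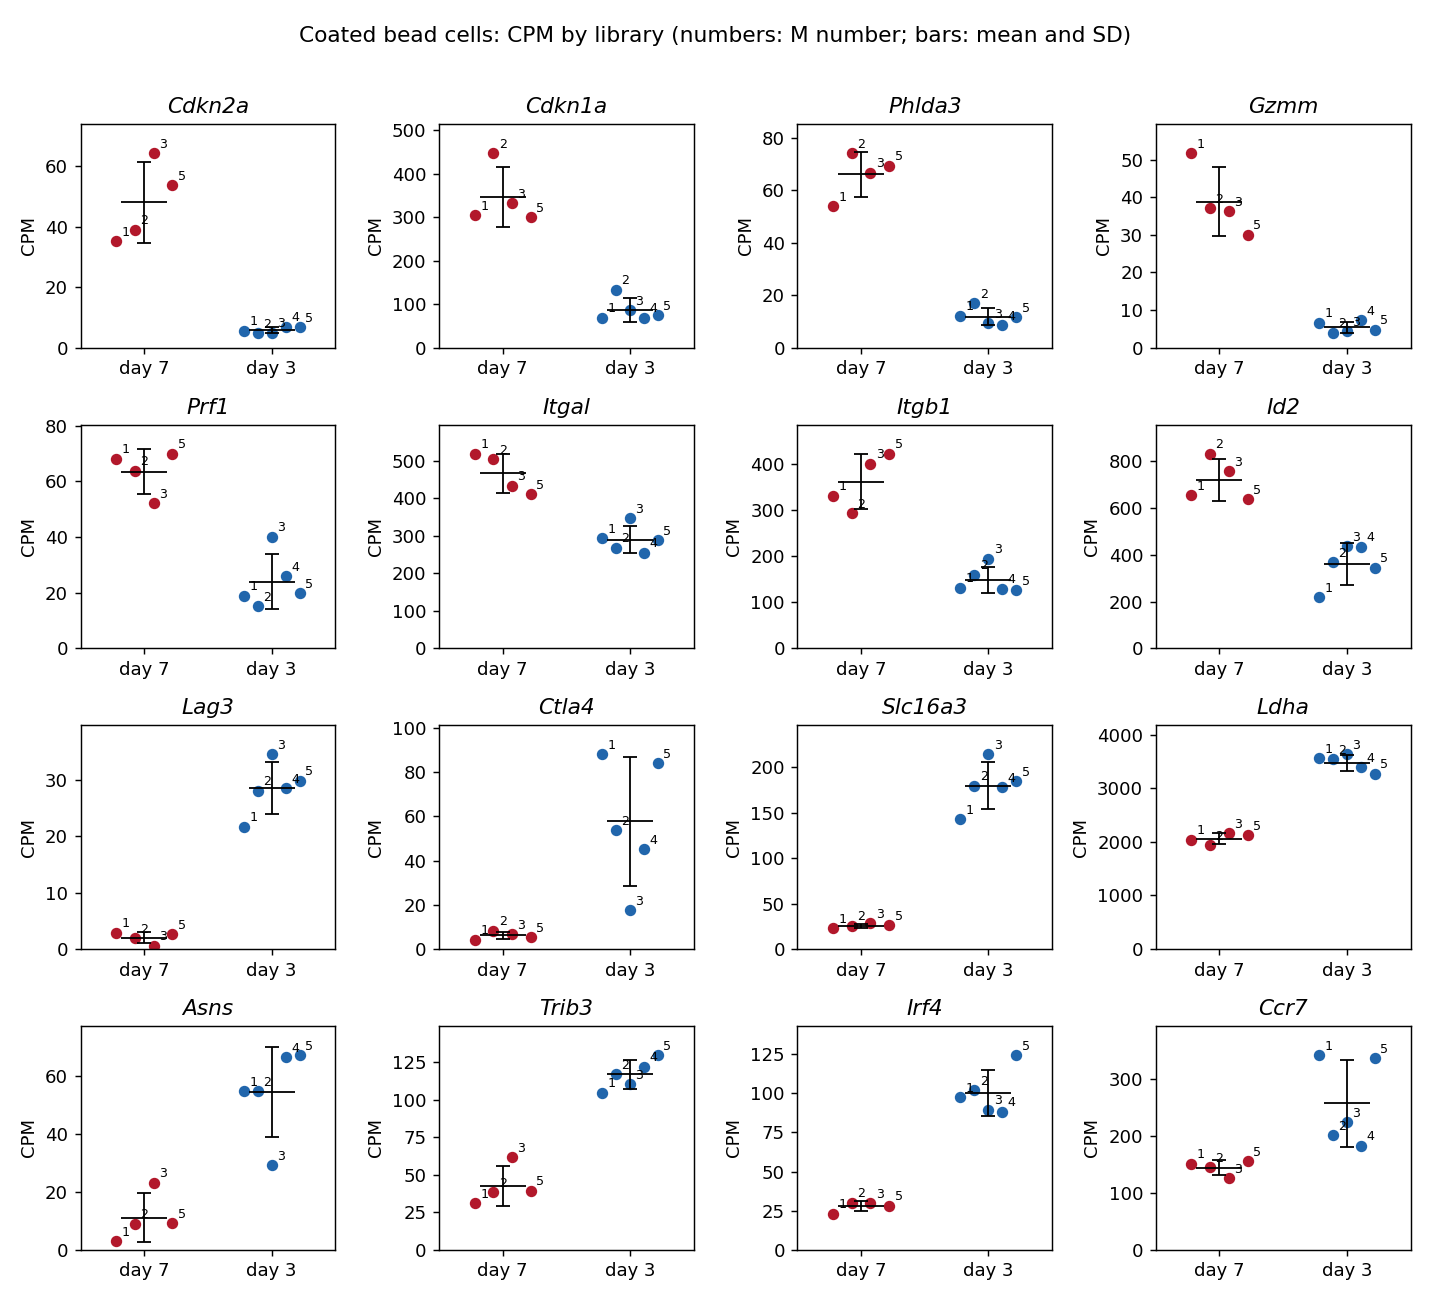
CPM of 16 genes in each coated bead library at day 7 (red, left) and day 3 (blue, right). Points carry the M number, and lines with bars give the mean and SD (n = 4 and n = 5). In every panel the day 7 libraries lie on 1 side of the day 3 libraries without overlap. Some of these genes had to lack overlap to be named, and 10.9% of all genes tested lacked it.

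Of the checkpoint receptors, Lag3, Ctla4 and Pdcd1 fell. Lag3, a receptor that dampens T cell activation, had 2.87, 1.92, 0.606 and 2.62 CPM at day 7 (4, 3, 1 and 4 counts) and 21.7, 28.1, 34.6, 28.6 and 29.9 CPM at day 3, a log2 fold change of -3.82 ± 0.32 (adjusted p = 1.10e-05). Ctla4, which competes with CD28 for its ligands, had 4.31, 8.30, 6.66 and 5.23 CPM at day 7 and 88.1, 53.8, 17.6, 45.1 and 84.0 CPM at day 3 (log2 -3.21 ± 0.52, adjusted p = 0.00798). Its day 3 values spread widely, with M3 the lowest, and lack of overlap was a condition of its choice. Pdcd1, the receptor PD-1, had 2.87, 5.11, 1.82 and 4.58 CPM at day 7 and 8.36, 15.3, 13.2, 7.37 and 7.24 CPM at day 3 (log2 -1.46 ± 0.38, adjusted p = 0.0358). Of 10 tested inhibitory receptors and ligands these 3 were lower, 3 with log2 Rpl5 in the fit and 2 without both M3 libraries. Tox, a transcription factor of chronic stimulation, was called higher at 9.69 to 11.1 CPM at day 7 against 2.41 to 7.37 CPM at day 3 (log2 1.16 ± 0.31, adjusted p = 0.0406), but leaving out single libraries, DESeq2 or log2 Rpl5 in the fit ended this call, with adjusted p up to 0.106. The Pdcd1 call was lost without day 7 M1, M2, M3 or M5, without day 3 M2 or M3 and without both M3 libraries (up to 0.119 over all alternatives).

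Some genes that the receptor signal is known to induce were lower at day 7. Irf4 had 22.98, 30.02, 29.7 and 28.1 CPM at day 7 and 97.5, 102, 89.5, 88.4 and 125 CPM at day 3 (log2 -1.85 ± 0.15, adjusted p = 8.74e-06). Nr4a1, an immediate early nuclear receptor, had 1.44 to 5.23 CPM at day 7 and 8.83 to 11.3 CPM at day 3 (log2 -1.81 ± 0.35, adjusted p = 0.0064). Of 15 tested TCR-induced and immediate early genes it was the 1 called lower, a count of 4 without day 7 M3 or without both M3 libraries and of 2 without day 3 M5. Jun, a subunit of AP-1, was the 1 called higher (28.7, 46.6, 27.3 and 30.7 CPM at day 7, and 17.8, 10.4, 19.2, 11.3 and 15.5 CPM at day 3; log2 1.16 ± 0.23, adjusted p = 0.00859), and the list's median was 0.02. Batf3, which binds DNA with IRF4 and JUN proteins, was lower (log2 -2.49 ± 0.42, adjusted p = 0.00304). Izumo1r, the folate receptor 4, and Foxp3, the transcription factor of regulatory T cells, both found on regulatory and on some activated T cells, were among the largest decreases. Foxp3 had 0.718, 9.58, 4.24 and 0.654 CPM at day 7 and 25.6, 33.7, 30.2, 25.1 and 17.9 CPM at day 3 (log2 -2.74 ± 0.50, adjusted p = 0.00798). Izumo1r had 1.44, 4.47, 1.82 and 1.31 CPM at day 7 and 25.6, 22.5, 25.3, 24.7 and 32.8 CPM at day 3 (log2 -3.49 ± 0.32, adjusted p = 2.13e-05). Cd4 was at or near 0 in these libraries, as given above.

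Other transcription factors moved in both directions. Id2, an inhibitor of E proteins that effector cells need, had 656, 833, 758 and 639 CPM at day 7 and 218, 369, 437, 435 and 346 CPM at day 3 (log2 1.00 ± 0.18, adjusted p = 0.00636). Maf, Bhlhe40 and Runx2 were called higher as well, so that 4 of 16 effector transcription factors rose and 2 (Batf3 and Irf4) fell, with a median of -0.28. Without day 7 M3 or without day 7 M5, 2 of the 16 were called higher. Eomes and Tbx21, the T-box factors of cytotoxic cells, were not called: Eomes had 433 to 674 CPM at day 7 and 245 to 487 CPM at day 3 (log2 0.58 ± 0.22, adjusted p = 0.172), and Tbx21 had 10.9 to 29.4 CPM at day 7 and 28.9 to 31.2 CPM at day 3 (log2 -0.68 ± 0.24, adjusted p = 0.118). Tbx21 was called lower with log2 Rpl5 in the fit, with a log2 fold change of -0.95.

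Of 19 naive and memory genes, 1 was called. Ccr7, the receptor of CCL21 on the coating and of naive cell homing, had 152, 146, 125 and 156 CPM at day 7 and 343, 202, 224, 183 and 337 CPM at day 3 (log2 -0.84 ± 0.19, adjusted p = 0.0246). All day 7 libraries were below all day 3 libraries, but the call was lost without any 1 day 7 library, without both M3 libraries and with log2 Rpl5 in the fit (adjusted p up to 0.0993). Tcf7, a factor of naive and memory cells, had 238, 256, 234 and 216 CPM at day 7 and 331, 100, 121, 97.5 and 380 CPM at day 3 (adjusted p = 0.861). Klf2, a transcription factor of quiescent T cells, had 75.1 to 127 CPM at day 7 and 64.6 to 241 CPM at day 3 (adjusted p = 0.617). For Tcf7, Klf2 and Ccl5, day 3 M1 and M5 were the highest libraries of day 3, and the means of the days lay within that spread. Il7r had too few counts to be tested.

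Genes of the receptors that the coating addresses changed on both sides. Itgal, the alpha chain of LFA-1, had 519, 504, 434 and 411 CPM at day 7 and 293, 268, 346, 255 and 288 CPM at day 3 (log2 0.69 ± 0.11, adjusted p = 0.00239). Itgb2, its beta chain, had 320 to 387 CPM at day 7 and 227 to 305 CPM at day 3 (log2 0.39 ± 0.11, adjusted p = 0.0403), a call that was lost without any one of 3 day 7 libraries (M1, M2 and M5) or 3 day 3 libraries (M1, M2 and M4), or with log2 Rpl5 in the fit, with adjusted p up to 0.231. Itgb1, the beta chain of fibronectin and collagen receptors, rose more, with 330, 293, 400 and 421 CPM at day 7 and 132, 160, 194, 130 and 126 CPM at day 3 (log2 1.29 ± 0.15, adjusted p = 0.000163). Rasgrp2, which activates RAP1 and through it LFA-1, fell to 130 to 141 CPM at day 7, against 186 to 272 CPM at day 3 (log2 -0.69 ± 0.12, adjusted p = 0.00415). Of 27 tested genes of LFA-1, ICAM and integrins, 3 rose and 2 fell, with a median of 0.12. The M number as a replicate block left 1 higher and 1 lower. The higher count was 2 to 5 with 1 library left out, with 5 without day 3 M5, and the lower count was 1 without day 7 M1, M3 or M5 or both M3 libraries, where Actn1, an actin crosslinker, lost its call. Icam1 of the cells themselves had 47.9 to 54.6 CPM at day 7 and 39.0 to 60.9 CPM at day 3 (log2 0.06 ± 0.15, adjusted p = 0.86), a difference whose sign changed with log2 Rpl5 in the fit (-0.05). Among 14 chemokine receptor and migration genes, 3 were called higher, among them Ccr2, a receptor of inflammatory chemokines, and Dock2, which drives migration, and Ccr7 was called lower. With log2 Rpl5 in the fit 2 of the 14 were higher and none lower, and without both M3 libraries 4 were higher and none lower. Here too the replicate block left 1 higher and 1 lower. Ccr2 had 22.9 to 37.7 CPM at day 7 and 8.83 to 16.4 CPM at day 3 (log2 1.30 ± 0.22, adjusted p = 0.00304).

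Glycolysis genes fell together. Of 20 tested, 12 were called lower, against 2.73% of all genes, and none higher. The median was -0.75, against -0.03 for all genes. Slc16a3, the lactate exporter MCT4, had 22.98, 25.6, 28.5 and 26.2 CPM at day 7 and 143, 180, 214, 178 and 184 CPM at day 3, a log2 fold change of -2.80 ± 0.14 (adjusted p = 6.22e-08), the smallest p of the genes named here. Ldha, which turns pyruvate into lactate, had 2038, 1935, 2158 and 2123 CPM at day 7 and 3560, 3539, 3634, 3390 and 3271 CPM at day 3 (log2 -0.75 ± 0.08, adjusted p = 9.22e-05). Tpi1, an enzyme of the middle of the pathway, had 342 to 458 CPM at day 7 and 636 to 1011 CPM at day 3 (log2 -1.11, adjusted p = 0.000235), and Slc2a1, the glucose transporter GLUT1, had 65.8 to 90.2 CPM at day 7 and 82.5 to 169 CPM at day 3 (log2 -0.84, adjusted p = 0.024), with day 7 M1 and M5 above day 3 M1. Both were chosen after their values were seen, as were Vegfa and Slc1a4 below. The list summed to 6437 to 8286 CPM at day 7 and 10425 to 13259 CPM at day 3. With log2 Rpl5 in the fit 12 members were called again, 8 without both M3 libraries, and 7 without day 7 M2. The count was 6 with the M number as a replicate block.

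Hypoxia response genes, many of them targets of the factor HIF-1, fell as well. Of 16 tested, 7 were lower, against 2.73% of all genes, and none higher (median -0.54). The lower count was 6 with log2 Rpl5 in the fit and 6 without both M3 libraries. It was 5 with the M number as a replicate block. Bnip3, a mitophagy receptor, had 26.6, 35.1, 35.1 and 25.5 CPM at day 7 and 63.0, 98.0, 93.9, 93.6 and 106 CPM at day 3 (log2 -1.57 ± 0.17, adjusted p = 0.000127). Egln3, a prolyl hydroxylase that marks HIF-1 for decay, had 6.66 to 10.5 CPM at day 7 and 19.5 to 41.0 CPM at day 3 (log2 -1.91 ± 0.25, adjusted p = 0.000552). Vegfa, a growth factor of blood vessels, had 0 to 2.62 CPM at day 7 and 10.6 to 14.3 CPM at day 3. The hypoxia response element core ACGTG, on either strand, stood in 8 of the 19 promoter windows of called glycolysis and hypoxia genes and in 19.7% of the 27025 promoters. These lists hold known HIF-1 targets, so an excess may come from how they were made. Members that were not called were not searched, and a match is no proof of binding. Slc16a3 (chr11:120948817-120949116, plus strand) and Ldha (chr7:46845554-46845853, plus strand) are shown 5′ to 3′ with the core and its reverse complement in capitals.
Slc16a3: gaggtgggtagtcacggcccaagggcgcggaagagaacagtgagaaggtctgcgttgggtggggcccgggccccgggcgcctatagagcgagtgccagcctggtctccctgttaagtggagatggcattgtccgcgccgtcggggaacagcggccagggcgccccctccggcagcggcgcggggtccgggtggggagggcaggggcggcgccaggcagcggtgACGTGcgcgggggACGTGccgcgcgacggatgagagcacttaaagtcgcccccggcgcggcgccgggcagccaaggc
Ldha: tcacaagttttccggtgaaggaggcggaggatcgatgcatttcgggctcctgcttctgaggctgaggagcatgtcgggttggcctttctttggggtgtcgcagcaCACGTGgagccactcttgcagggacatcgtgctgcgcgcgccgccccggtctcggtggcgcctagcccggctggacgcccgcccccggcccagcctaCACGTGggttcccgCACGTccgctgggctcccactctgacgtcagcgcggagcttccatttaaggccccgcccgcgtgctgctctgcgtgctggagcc

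Of 23 tested genes of the amino acid stress response, which the factor ATF4 drives, and of serine synthesis 9 were called lower and none higher. Of all genes 2.73% were called lower. The list's median was -0.48. Trib3, a pseudokinase that ATF4 induces, had 30.9, 38.3, 61.8 and 39.2 CPM at day 7 and 105, 117, 110, 122 and 130 CPM at day 3 (log2 -1.45 ± 0.17, adjusted p = 0.000221). Pck2, the mitochondrial PEP carboxykinase, had 9.33, 9.58, 18.8 and 9.81 CPM at day 7 and 41.2, 32.9, 28.6, 47.2 and 48.8 CPM at day 3 (log2 -1.73 ± 0.25, adjusted p = 0.00111). Asns, asparagine synthetase, had 2.87, 8.94, 23.02 and 9.15 CPM at day 7 and 54.6, 54.6, 29.1, 66.3 and 67.1 CPM at day 3 (log2 -2.27 ± 0.45, adjusted p = 0.0183). The closest values of Asns were those of the M3 libraries, 23.02 CPM at day 7 and 29.1 CPM at day 3, and its call was lost without day 7 M2 or M5. Slc1a4, a transporter of neutral amino acids, had 0.639 to 2.62 CPM at day 7 and 7.14 to 11.6 CPM at day 3. Atf4 itself, with Mthfd2, Mthfd1l, Shmt2 and Phgdh of serine and one-carbon metabolism, made up the remaining 5, and Bcat1, the cytosolic branched-chain aminotransferase, fell too (11.5 to 20.6 CPM at day 7 and 54.6 to 74.1 CPM at day 3; log2 -2.03 ± 0.18, adjusted p = 2.06e-05). With log2 Rpl5 in the fit 10 members of the list were lower, 10 without both M3 libraries, and 6 without day 7 M2. The count was 5 with the M number as a replicate block. The C/EBP-ATF element TGATGNAA, on either strand, stood in 4 of the 9 windows of these genes and in 4.06% of all promoters. The list holds known ATF4 targets, so an excess may come from how it was made. Members that were not called were not searched, and a match is no proof of binding. Asns (chr6:7693160-7693459, minus strand) and Trib3 (chr2:152344011-152344310, minus strand) are shown 5′ to 3′ on the gene's strand with the element in capitals.
Asns: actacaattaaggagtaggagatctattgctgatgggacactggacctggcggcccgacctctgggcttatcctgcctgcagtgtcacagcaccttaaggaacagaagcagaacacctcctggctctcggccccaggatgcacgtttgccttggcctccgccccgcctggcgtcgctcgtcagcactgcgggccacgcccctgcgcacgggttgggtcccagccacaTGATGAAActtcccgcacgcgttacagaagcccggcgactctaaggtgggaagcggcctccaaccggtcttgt
Trib3: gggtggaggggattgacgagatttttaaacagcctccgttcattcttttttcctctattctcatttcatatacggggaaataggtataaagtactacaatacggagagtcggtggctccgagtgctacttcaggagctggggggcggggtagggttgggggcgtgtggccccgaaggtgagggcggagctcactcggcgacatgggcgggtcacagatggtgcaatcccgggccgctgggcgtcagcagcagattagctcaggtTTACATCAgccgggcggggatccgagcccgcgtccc

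Lipid synthesis and translation genes moved less. Of 22 cholesterol synthesis genes 3 were lower (median -0.38), a count of 0 with log2 Rpl5 in the fit or without day 7 M2, of 1 without day 7 M1 or M5 or day 3 M1 or M4, and of 7 without both M3 libraries. Of 18 fatty acid genes 3 were lower (median -0.23), among them Srebf1, the transcription factor of this pathway, with 144 to 172 CPM at day 7 and 190 to 280 CPM at day 3 (log2 -0.58 ± 0.12, adjusted p = 0.00975), a call that was lost without day 7 M2 or M5. Without day 7 M2 no gene of this list was called, and without day 7 M1 or M5 1 was. No cytosolic ribosomal protein gene (76 tested, median -0.10) and no gene of the endoplasmic reticulum stress response (21 tested, median -0.10) was called by edgeR, but 13 ribosomal protein genes were lower without both M3 libraries, 3 without day 7 M3 and 2 without day 3 M3. In the stress list 1 gene was called without day 3 M3 and 1 without day 3 M5. Of 39 Myc and ribosome biogenesis genes 2 were lower, Ncl and Polr1c, near the 2.73% of all genes called lower. This count was 0 without day 7 M1, M2 or M5 or day 3 M2 or M4, 1 without day 3 M1 or with log2 Rpl5 in the fit, and 4 without day 3 M5. Myc itself had 268 to 356 CPM at day 7 and 158 to 338 CPM at day 3 (log2 0.25 ± 0.20, adjusted p = 0.532).

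**Figure D3:**
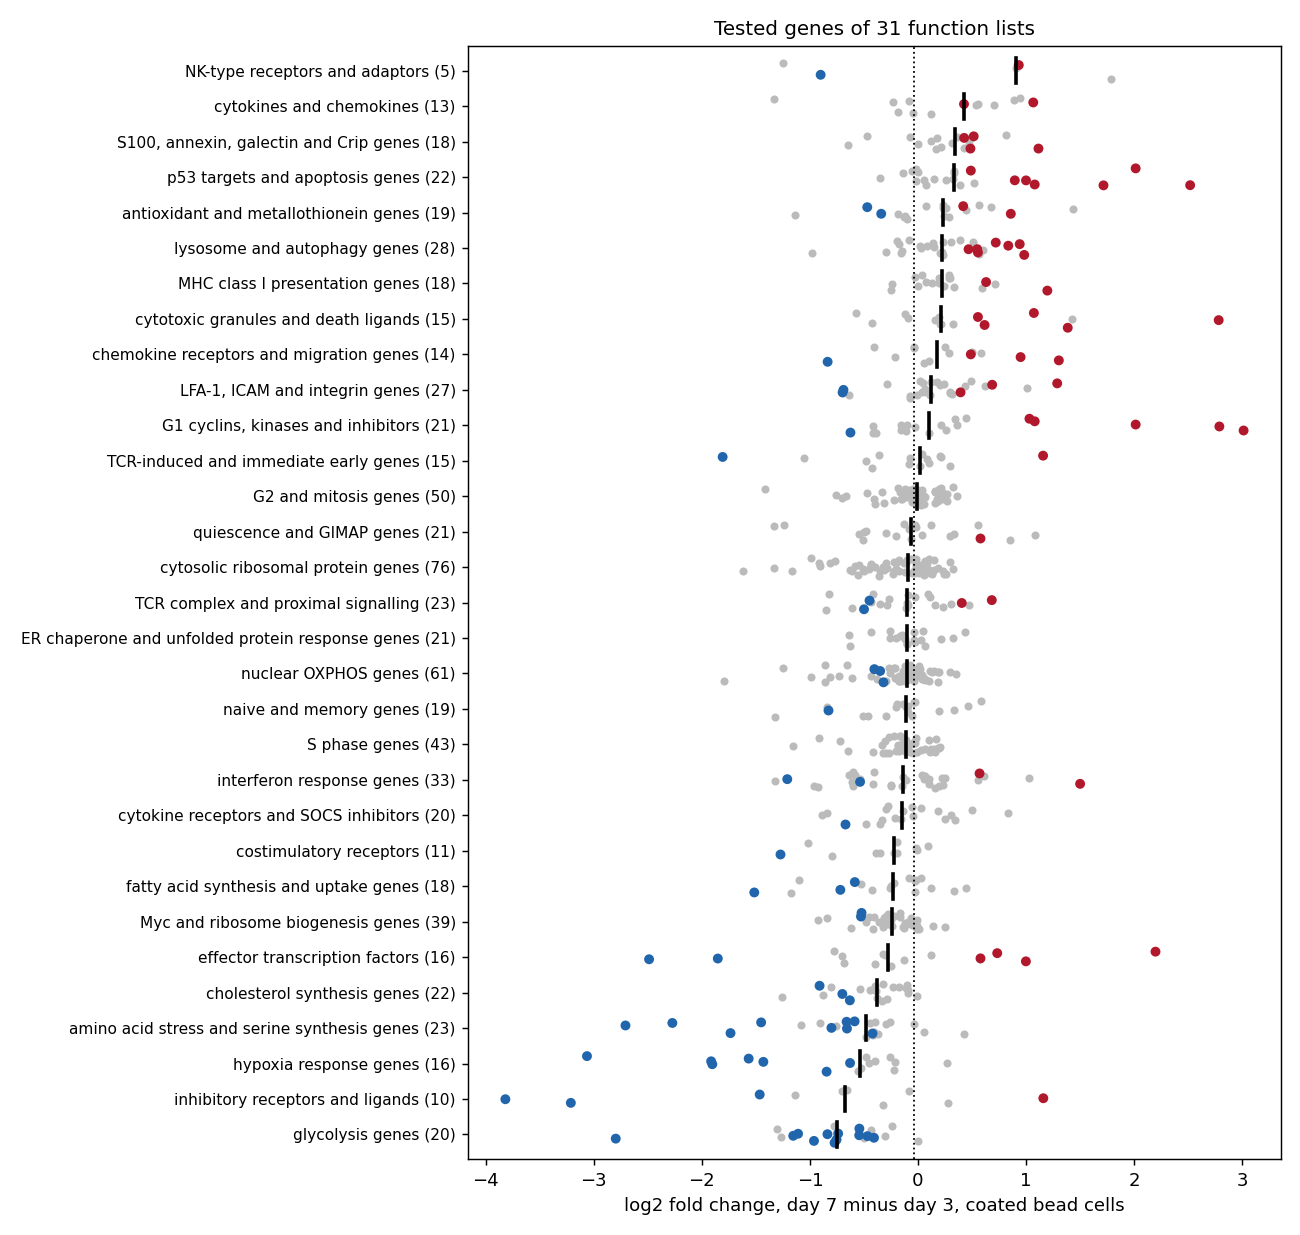
Log2 fold change (day 7 minus day 3) of each tested gene of 31 function lists, with the number of tested genes in brackets. Coloured points are called genes (red higher, blue lower), grey points are not called, black bars are list medians, and the dotted line is the median of all 8793 genes at -0.03; the glycolysis list has the lowest median, at -0.75.

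Of 28 tested genes of lysosomes and autophagy 7 were called higher, against 3.65% of all genes, and none lower (median 0.23). The higher count was 7 with log2 Rpl5 in the fit and 7 without both M3 libraries. It was 2 with the M number as a replicate block. Ctsd, a lysosomal protease, had 725, 856, 614 and 707 CPM at day 7 and 435, 430, 404, 411 and 523 CPM at day 3 (log2 0.72 ± 0.11, adjusted p = 0.00176). Gabarap, which builds autophagosomes, had 296 to 323 CPM at day 7 and 148 to 191 CPM at day 3 (log2 0.94 ± 0.10, adjusted p = 9.22e-05). Among MHC class I genes H2-K1 (log2 0.63 ± 0.11, adjusted p = 0.00354) and H2-Q7 (log2 1.20 ± 0.19, adjusted p = 0.00428) were higher, but class I genes are near-identical in places, so reads may be split between them. Of 33 tested interferon response genes, 2 were called higher (Ifitm2 and Oas3) and 2 lower, among them Iigp1, an immunity-related GTPase. Of all genes 3.65% were called higher and 2.73% lower, so these few calls say little about the list. The Oas3 call was lost without day 7 M2 or M5, and the Iigp1 call with log2 Rpl5 in the fit or without any single library other than day 7 M3 and day 3 M3. The lower count was 5 without both M3 libraries and 1 without day 7 M1, M2 or M5 or day 3 M2 or M4. Il2rb, a chain of the receptor for interleukin 2, was lower (483 to 671 CPM at day 7 and 744 to 1114 CPM at day 3; log2 -0.67 ± 0.13, adjusted p = 0.00754), and Il2ra, the alpha chain, was not called (30.02 to 71.3 CPM at day 7 and 76.4 to 145 CPM at day 3; adjusted p = 0.08).

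The other large increases were of genes outside these lists. Serpine2, a secreted inhibitor of serine proteases, had 20.1, 51.1, 43.6 and 39.2 CPM at day 7 and 5.02, 8.03, 8.79, 1.73 and 5.31 CPM at day 3 (log2 2.78 ± 0.36). Ccn3, a matricellular protein, had 22.98 to 57.5 CPM at day 7 and 4.46 to 8.03 CPM at day 3 (log2 2.70 ± 0.27). Myl10, a myosin light chain gene, had 125 to 233 CPM at day 7 and 27.7 to 41.8 CPM at day 3 (log2 2.42 ± 0.21), and Dglucy, D-glutamate cyclase, had 34.5 to 45.1 CPM at day 7 and 3.03 to 12.1 CPM at day 3 (log2 2.403 ± 0.28). Rgs12, a regulator of G protein signalling, and Psrc1, a microtubule-associated protein, rose by 1.85 ± 0.28 and 1.89 ± 0.23 on the log2 scale. These 6 genes were chosen among called genes whose groups do not overlap, and each was called whichever library was left out. Other large decreases were those of Ncf1, a subunit of the NADPH oxidase (log2 -2.24 ± 0.29), Cxxc5 (log2 -1.90 ± 0.38) and Cables1, a regulator of cyclin-dependent kinases (log2 -1.89 ± 0.27), which were also called whichever library was left out, and Tubb6, a beta tubulin (log2 -2.27 ± 0.53, adjusted p = 0.0396), which was not.

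Against day 0, the changes had several shapes. Levels in this paragraph are CPM scaled over 26 libraries of day 0 and bead cells, as mean ± SD with n = 9 at day 0, n = 5 at day 3 and n = 4 at day 7, and day 0 cells had seen neither beads nor coating. Cdkn2a had 0.229 ± 0.604 CPM at day 0, 5.40 ± 0.899 CPM at day 3 and 44.9 ± 11.9 CPM at day 7, higher at each time. Itgb1 had 69.9 ± 12.5, 138 ± 29.4 and 338 ± 53.9 CPM at days 0, 3 and 7. Prf1 was lowest at day 3, with 68.6 ± 13.9, 22.5 ± 9.60 and 59.7 ± 8.28 CPM, and the ranges of day 0 and day 7 overlapped. Slc16a3 peaked at day 3, with 13.3 ± 7.66, 168 ± 26.4 and 24.2 ± 1.80 CPM, as did Lag3, with 7.12 ± 3.55, 26.7 ± 4.71 and 1.89 ± 0.969 CPM. Ccr7 was highest before activation, at 2074 ± 523, 239 ± 68.0 and 136 ± 14.3 CPM. Cdkn1a had 280 ± 199, 80.7 ± 25.4 and 325 ± 65.4 CPM, with day 0 libraries from 78.8 to 556 CPM. No test was made against day 0.

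**Figure D4:**
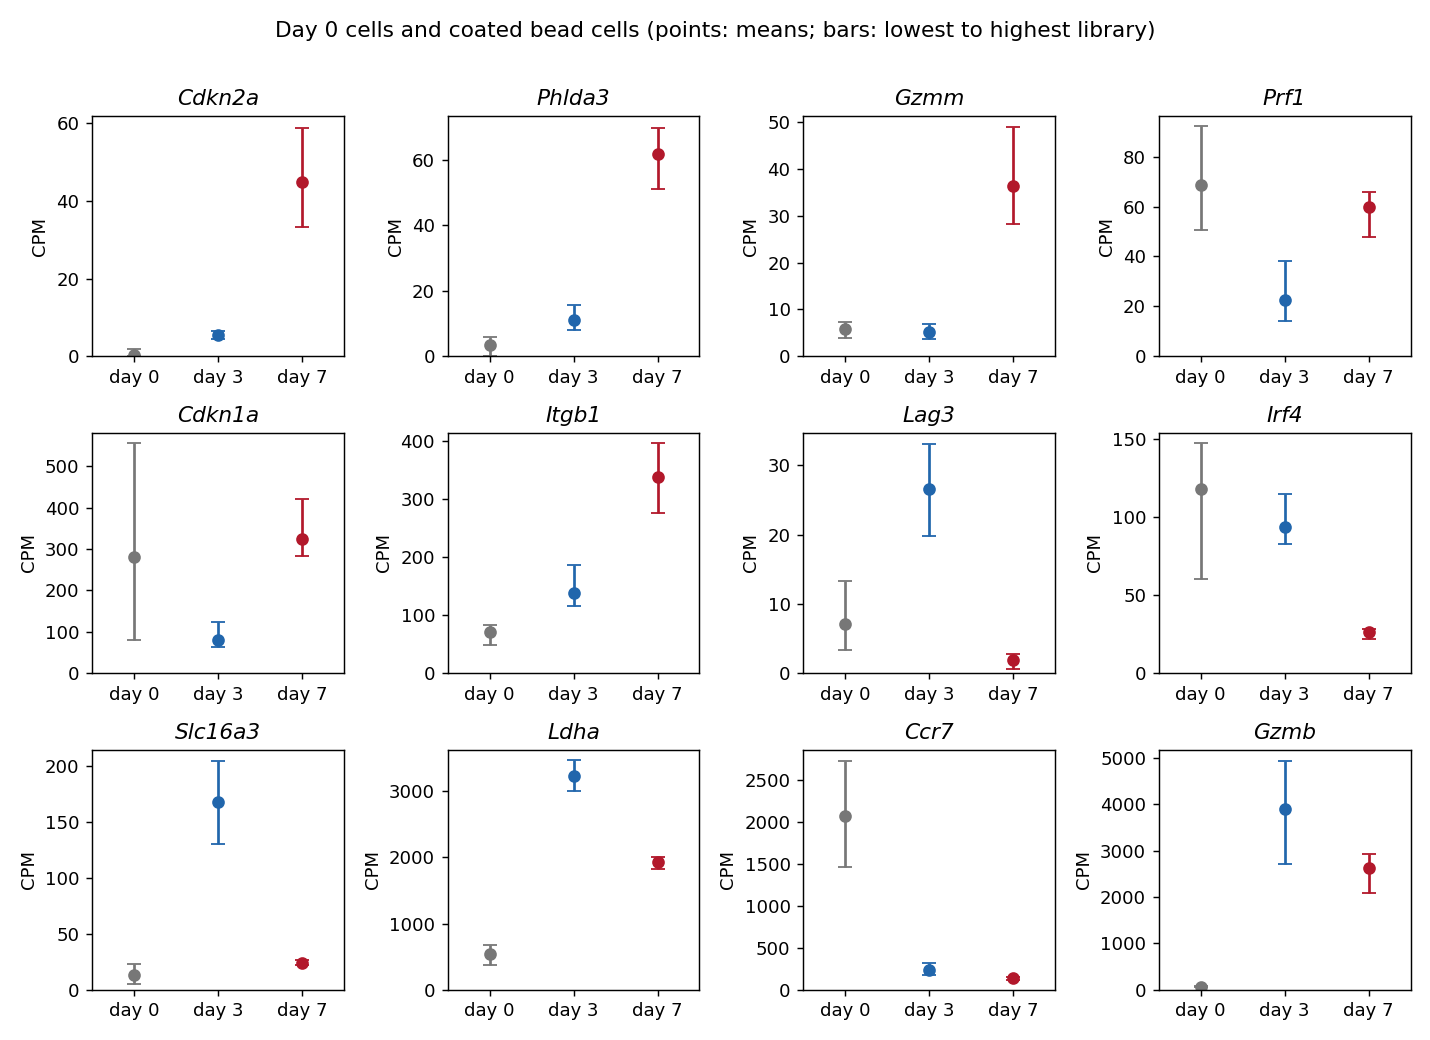
Mean CPM of 12 genes at day 0 (9 libraries) and in coated bead cells at day 3 (5) and day 7 (4), with bars from the lowest to the highest library. Slc16a3, Ldha, Lag3 and Gzmb are highest at day 3, Cdkn2a, Phlda3, Gzmm, Cdkn1a and Itgb1 at day 7, and Ccr7 at day 0.

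Whether the change over time differs from that of uncoated cells was tested as a difference of the log2 fold changes over 17 bead libraries. Of 9481 genes tested, 376 differed (3.97%), 140 with a higher (1.48%) and 236 with a lower (2.49%) log2 fold change on the coating. In the same fit the change itself was called for 477 genes (5.03%; 3.17% higher and 1.86% lower at day 7) on the coating and 2744 genes (28.9%) without it. Uncoated libraries had 630736 to 1617410 counts at day 3 and 1398853 to 2785011 counts at day 7. Before TMM scaling, their Rpl5 ran from 57.1 to 498 CPM at day 3 and from 20.5 to 1032 CPM at day 7. What part depth or the Rpl5 pattern has in these calls was not tested. Of the 236, 128 had a negative estimate with and a positive one without the coating, 103 were positive in both and 5 negative in both. Of the 140, 89 were positive with and negative without the coating, and 51 were negative in both. These counts rest on few libraries: 224 genes differed with log2 Rpl5 in the fit, and leaving out a single library moved the count by over 1.5 times for all but coated day 7 M3 and coated day 3 M2, M3 and M4. Of coated libraries the count was 113, 161 and 86 without day 7 M1, M2 or M5 and 165 and 145 without day 3 M1 or M5. Of uncoated libraries it was 878, 863, 131, 184 and 154 without day 7 M1, M2, M3, M4 or M5 and 36, 66 and 62 without day 3 M1, M2 or M4. Of the 22 named genes called, 6 were called whichever library was left out.

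These 6 were also called under the other 7 alternatives tried. The log2 fold change over time was lower on the coating for Pck2, Trib3, Cables1 and Slc16a3, and higher for Gclm and H2bc12. CPM values here are scaled over the 17 libraries. Trib3 had 30.7, 38.2, 60.6 and 38.8 CPM in coated day 7 libraries and 103, 115, 109, 120 and 127 CPM in coated day 3 libraries, while uncoated cells had 84.9, 64.0, 128, 156 and 167 CPM at day 7 and 63.1, 70.5 and 83.4 CPM at day 3. It fell with and rose without the coating, by log2 -1.44 ± 0.25 and 0.74 ± 0.27, a difference of -2.18 ± 0.36 (adjusted p = 0.00701). Pck2 changed by -1.72 ± 0.27 with and 1.08 ± 0.31 without the coating, a difference of -2.80 ± 0.41 (adjusted p = 0.00257). For 7 of 23 amino acid stress genes the log2 fold change over time was called lower on the coating, against 2.49% of all genes. The list's median difference was -0.11, near the -0.03 of all genes. Asns, 1 of the 7, was called as different in 8 of 24 alternatives. Cables1 changed by -1.88 ± 0.28 with and 0.77 ± 0.28 without it (difference -2.65 ± 0.40, adjusted p = 0.00346).

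Slc16a3 had 22.8 to 27.9 CPM at day 7 and 140 to 211 CPM at day 3 on the coating, and 28.5 to 70.7 CPM at day 7 and 88.9 to 98.9 CPM at day 3 without it. It fell in both, by -2.78 ± 0.20 with and -0.97 ± 0.20 without the coating (difference -1.81 ± 0.28, adjusted p = 0.00366), and its day 3 level was higher on the coating in every library. Gclm, a subunit of the enzyme of glutathione synthesis, had 290, 301, 173 and 265 CPM at day 7 and 116, 165, 170, 148 and 104 CPM at day 3 on the coating, and 118, 141, 109, 148 and 82.2 CPM at day 7 and 168, 257 and 251 CPM at day 3 without it (difference 1.78 ± 0.29, adjusted p = 0.00568). H2bc12, a histone H2B gene, changed by -0.62 ± 0.19 with the coating, which was not called (adjusted p = 0.0648), and fell by 2.29 on the log2 scale without it (difference 1.67 ± 0.29, adjusted p = 0.00701). Among the leading genes of the comparison over time, Cdkn2a, Cdkn1a and Phlda3 were not called as different. The difference was -0.44 ± 0.49 for Cdkn2a (adjusted p = 0.613), -0.41 ± 0.36 for Cdkn1a (0.527 after adjustment) and -0.06 ± 0.45 for Phlda3 (0.96 after adjustment). These SE are too wide to show that the coating makes no difference. Other leading genes were called as different, such as Slc16a3 and, less firmly, Lag3 (difference -1.83, edgeR adjusted p = 0.0436).

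**Figure D5:**
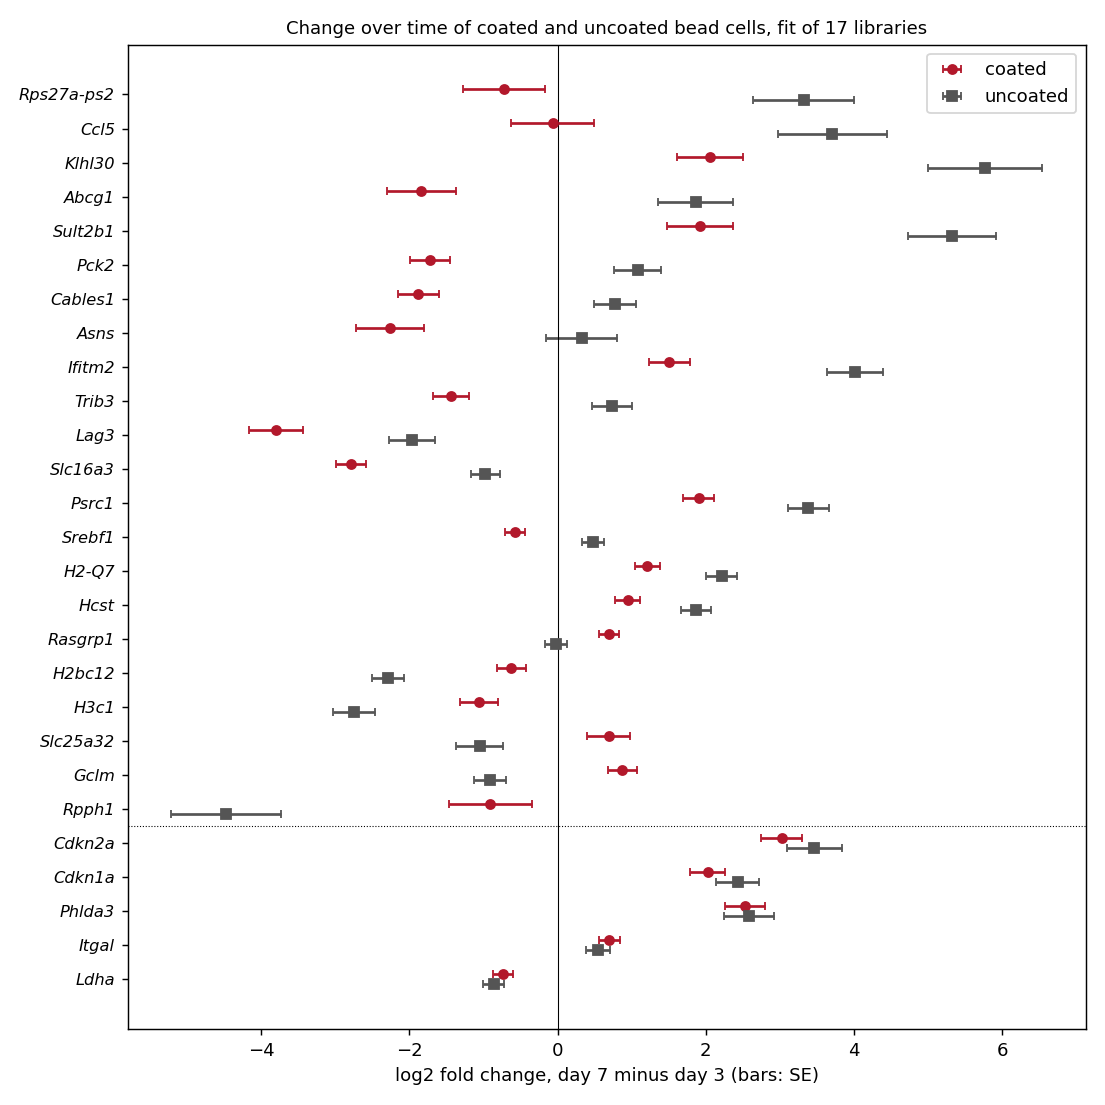
Log2 fold change from day 3 to day 7 with its SE in coated (red circles) and uncoated (grey squares) bead cells, from the fit of 17 libraries. Above the dotted line stand the 22 named genes whose change differed, ordered by the difference, and below it 5 genes of the comparison over time that were not called as different.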

How the data were processed

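CD8+ T cell RNA was profiled by bulk MARS-seq. Per the submitters' processing notes the tools were bcl2fastq, cutadapt, STAR 2.4.2a, HTSeq and DESeq2, with build mm10; collapsing of duplicate molecules is not given in the sources used here, so true noise may exceed the counting error. The deposited table holds whole-number counts of 14626 genes, which reach at least 6 counts in some library, and the authors' log2 fold changes and adjusted p-values for day 3 over day 7, printed only where named. Its 104 other per-sample columns were not used.

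Genes were filtered (filterByExpr, minimum count 10, total 15), scaled by TMM and tested two-sided in edgeR 4.0.16 (R 4.3.3) by its quasi-likelihood F-test with robust estimation. Only the 9 coated libraries entered the main fit, and all 17 bead libraries that of the difference. SE is the fold change over the square root of F. Alternatives were DESeq2 1.42.0, its size factors, no filter, an M number block, 4 groups in 1 fit and leaving out libraries, and, added after seeing the data, those with Rpl5, both M3 libraries, or uncoated day 7 M3 and M4.

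The members, 31 function and 8 marker lists were chosen with earlier results of these data known. Named genes are the up to 12 called genes per direction with the largest change (mean of at least 20 CPM, no overlap), up to 2 per list and direction, 20 fixed genes and up to 5 per direction for the difference; others are said to be chosen later. Some genes of this rule are not reported here. No pair of replicates was identical. The test was run on simulated data.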

Additional observations from a re-analysis of the deposited data

Results flagged for a closer look

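In 268 groups of 4 or 5 libraries, 11 had a library far from the others by Dixon's criterion, where chance alone would give 13.4. Among day 7 libraries these were M1 for Ltb (1152 CPM, the others 1070 to 1081) and for the summed p53 targets and apoptosis genes (2504 CPM, the others 2838 to 2869), M2 for Izumo1r (4.47 CPM) and for the summed CD4 and regulatory T cell markers (52.4 CPM, the others 25.1 to 28.8), and M3 for Pck2 (18.8 CPM, the others 9.33 to 9.81). Among day 3 libraries these were M1 for the summed erythroid and platelet markers (52.4 CPM, the others 11.2 to 21.96), M2 for Cdkn1a (133 CPM) and Fyn (283 CPM), M3 for Polr1c (121 CPM), M4 for Tnfsf14 (14.3 CPM) and M5 for Ctsd (523 CPM).

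The change over time differed between coated and uncoated cells for 22 named genes, by the test of the difference itself (log2, coated minus uncoated). Pck2 (-2.80), Cables1 (-2.65), Trib3 (-2.18), Slc16a3 (-1.81), Gclm (1.78) and H2bc12 (1.67) were called whichever library was left out, and the other 16 were not. Negative differences among them were those of Rps27a-ps2, a ribosomal protein pseudogene whose reads may belong to its parent (-4.05), the chemokine gene Ccl5 (-3.78), Klhl30 (-3.71), the cholesterol exporter Abcg1 (-3.70), the sulfotransferase Sult2b1 (-3.40), Asns (-2.59), Ifitm2 (-2.51), Lag3 (-1.83), Psrc1 (-1.48), Srebf1 (-1.05), H2-Q7 (-1.003) and the adaptor Hcst (-0.92). Positive differences were those of Rpph1, the RNA of ribonuclease P (3.56), the folate transporter Slc25a32 (1.74), the histone gene H3c1 (1.69) and Rasgrp1, an activator of RAS (0.72). Ccl5 changed by -0.07 on the coating and 3.71 without it, and Klhl30 by 2.06 and 5.77.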

How the results depend on the processing

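The count of genes changed between the days (561) was 557 with DESeq2 size factors, 569 with no filter, 640 with DESeq2's Wald test, 477 with 4 groups in 1 fit and 501 with log2 Rpl5 in the fit. It was 932 without both M3 libraries, where 45.5% of the calls were higher, against 57.2% as reported, and 290 to 584 with 1 library left out. With the M number as a replicate block it was 140. Deviations of same-numbered libraries from their group means correlated at -0.17, 0.04, -0.61 and 0.03, and no library correlated best with its own number. The Rpl5 pattern, opposite in the M3 libraries of the days, enters these correlations. They cannot show whether libraries of 1 M number belong together. All 81 named genes called kept their direction in the 16 alternatives, but they were chosen by calls in the same libraries. Of the 81, 51 were called whichever library was left out and 43 with the replicate block. Calls lost with the block included those of Itgal, Nr4a1, Jun, Ccr2, Il2rb, H2-K1, Ltb and Ccne1. The count for the difference (376) was 372 with size factors, 286 with no filter (23.8% higher, against 37.2%), 644 with DESeq2's Wald test, 83 with the replicate block, 68 without uncoated day 7 M3 and M4, 481 without both coated M3 libraries, 224 with log2 Rpl5 in the fit and 36 to 878 with 1 library left out. The count without the coating (2744) was 1837 to 3066. Reversed signs, none of them called as reported, were those of Ccl5 (0.088 with the replicate block, 0.49 with Rpl5, -0.31 to 0.44 with 1 library left out), Icam1 (-0.048 with Rpl5) and Mki67 (0.23 with Rpl5). Of 3120 list counts over alternatives, 711 moved by over 1.5 times. The cause of these shifts was not tested. Without both M3 libraries, the day and the Rpl5 pattern cannot be told apart in coated cells. Genes such as Lag3, with 1 to 4 counts in day 7 libraries, are limited by depth.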

Other observations

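Some gene groups moved in part. Of 23 tested genes of the T cell receptor complex and its proximal signalling, Fyn, a SRC family kinase, and Rasgrp1 were higher at day 7 and Cd6, a coreceptor, and Cd8a were lower. The Fyn call was lost without day 7 M1, M2 or M5, day 3 M4 or with log2 Rpl5 in the fit, the Cd8a call without day 7 M1 or M2, and the Cd6 call without day 7 M2 or M3. The lower count was 0 without day 7 M2, 1 without day 7 M1 or M3, and 6 without both M3 libraries. Rasgrp1 had 108, 104, 101 and 108 CPM at day 7 and 71.9, 53.002, 52.2, 73.2 and 75.8 CPM at day 3 (log2 0.68 ± 0.14, edgeR adjusted p = 0.0086), without overlap. Hcst, the adaptor DAP10 of the receptor NKG2D, had 130, 176, 167 and 143 CPM at day 7 and 80.3, 73.9, 78.5, 71.5 and 98.5 CPM at day 3 (log2 0.93 ± 0.13, edgeR adjusted p = 0.000772), while Klrk1, the gene of NKG2D, was lower (log2 -0.90 ± 0.25, edgeR adjusted p = 0.0464), a call that held in 4 of 16 alternatives and was lost with DESeq2, with no filter, with log2 Rpl5 in the fit and without any single library other than day 7 M3 and day 3 M1. Icos, a costimulatory receptor, had 5.11 to 8.48 CPM at day 7 and 8.69 to 19.1 CPM at day 3 (log2 -1.28 ± 0.29, edgeR adjusted p = 0.018), a call that was lost without day 7 M1, M2 or M5 or day 3 M4 (edgeR adjusted p up to 0.107).

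Of 18 tested S100, annexin, galectin and Crip genes 4 were higher at day 7 and none lower. But the count was 0 without day 7 M2 and with the M number as a replicate block. It was 1 without day 3 M4 and 2 without day 7 M5 or day 3 M1. Without day 3 M5 or with log2 Rpl5 in the fit it was 7. Of 61 nuclear genes of oxidative phosphorylation 3 were lower, near the 2.73% of all genes called lower. This count was 0 without day 7 M1, M2 or M5 or day 3 M1, M2 or M4 and with the M number as a replicate block, and 10 without both M3 libraries.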
